A study of Homo sapiens with 3 samples.

Results

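The 69 genes described here encode heat shock chaperones, their J-domain and BAG partners and the heat shock factors HSF1 and HSF2. They were taken from the 23379 genes measured in DU145 cells by their names: every protein-coding gene whose symbol begins with DNAJA, DNAJB, DNAJC, HSPA, HSPB, HSP90A or HSPH, together with HSPD1, HSPE1, HSF1, HSF2 and BAG1 to BAG5, leaving out HSPA5 and DNAJB9. The rule uses names only. Of the 69 members, 53 had a mean of at least 1 FPKM over the libraries (fragments scaled to gene length and to the reads counted in the library), and HSF1 was the lowest inside this limit at 1.83 FPKM and DNAJC27 the highest outside it at 0.902 FPKM. The name rule also takes in genes that are not chaperones of the cytosol or mitochondria: by textbook assignment, made after the values were seen, 10 members belong to the endoplasmic reticulum, 8 to mitochondria and 51 to the cytosol, nucleus or other places.

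RNA was sequenced from 3 libraries of DU145, an established line from a metastasis of a human prostate carcinoma, 1 library in each group. The groups were cells given a plasmid for the BRAF mutant L597R (L597R), cells overexpressing wild-type BRAF (WT) and a negative control (P-Enter). BRAF is the kinase between RAS and MEK, and L597R exchanges a single residue of its kinase domain. The promoter of the plasmids, the time after transfection and whether cells were selected are not given in the sources used here. With 1 library in each group no difference has a replicate check and no p-value is given. A member is called higher or lower when log2(FPKM + 1) differed by at least 0.379, which is 1.3-fold, and its mean was at least 1 FPKM. This scale understates the change of genes with low FPKM. Read ratios come with exact 95% intervals (Clopper-Pearson), which cover counting error only and compare libraries, not conditions. Fewer cells that express a gene and less RNA in each cell cannot be told apart in such bulk samples.

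The libraries held 16603676 (L597R), 15665132 (WT) and 13294004 (P-Enter) counted reads. BRAF stood at 9.59 FPKM in L597R, 4.41 FPKM in WT and 1.65 FPKM in P-Enter, above P-Enter in both BRAF groups. Its read ratio in L597R against WT was 2.18 (2.05 to 2.31). L597R and WT thus differed in BRAF level as well as in the mutation. The part of each in the differences between L597R and WT was not tested. Members below that were highest in L597R and lowest in P-Enter follow the order of BRAF level. The deposited genes include 7 of 10 epithelial markers, of which KRT18 (37.6, 36.6 and 34.3 FPKM in L597R, WT and P-Enter) and OCLN (1.18, 1.77 and 1.73 FPKM) had a mean of at least 1 FPKM, while the defining marker CDH1 had 0, 0 and 1 read. Of 8 mesenchymal markers analysed 4 had a mean of at least 1 FPKM, and the set summed to 152 FPKM in L597R, 146 in WT and 148 in P-Enter. The filament gene VIM was at 132, 127 and 130 FPKM, and the transcription factor gene ZEB1 was at 4.79, 3.33 and 2.72 FPKM, highest in L597R. The part of ZEB1 in the results was not tested. Leukocyte markers and endothelial markers each summed to no more than 0.162 FPKM in any library. Across 9358 protein-coding genes, differences between libraries followed GC content (Spearman -0.69 in L597R against P-Enter, -0.45 in WT against P-Enter, -0.59 in L597R against WT, over genes, which are not independent replicates). Members are therefore also given with a residual, the log2 difference that remained once gene length, GC content and level had been fitted.

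Heat shock proteins keep other proteins folded. HSP70 proteins (HSPA) bind exposed hydrophobic stretches in cycles driven by ATP: J-domain proteins (DNAJ) deliver the client and trigger ATP hydrolysis, and BAG proteins and HSP110 proteins (HSPH1, HSPA4, HSPA4L) exchange the nucleotide so that the client is let go. HSP90 takes over partly folded kinases and receptors, BRAF mutants among its known clients, HSPD1 with its lid HSPE1 folds imported proteins inside mitochondria, and small heat shock proteins (HSPB) hold unfolded proteins for the others. HSF1 is the transcription factor that binds heat shock elements and drives the inducible members when unfolded protein builds up.

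The members formed a steep ladder of levels, with the same genes at its top in every library. HSP90AB1, HSPA8, HSP90AA1, DNAJA1, HSPB1, HSPD1 and HSPA9 had a mean of at least 100 FPKM, 22 members lay between 10 and 100 FPKM, 24 between 1 and 10 FPKM and 16 below 1 FPKM. HSP90AB1, HSPA8 and HSP90AA1 alone made up 62.9% of the members' summed FPKM in L597R, 63.6% in WT and 64.4% in P-Enter. All members together took 1.74% of the counted reads in L597R, 1.66% in WT and 1.65% in P-Enter. The stress-inducible HSP70 genes were at or near 0 in assigned reads. HSPA1A had 0, 1 and 0 reads in L597R, WT and P-Enter and HSPA6 had 6, 12 and 0 reads. HSPA1L, the testis form beside HSPA1A, had 0, 4 and 1 read. A count of 0 allows up to 3 reads, or 0.0752 FPKM for HSPA1A in L597R and 0.0939 FPKM in P-Enter. HSPA1A shares 72.6% of its 50-base stretches with the neighbouring copy HSPA1B, which was not analysed here. Of those of HSPA6 45.5% occur in another gene, most often HSPA7. Reads common to such copies may not have been assigned to HSPA1A or HSPA6, and how many was not tested.

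**Figure D1:**
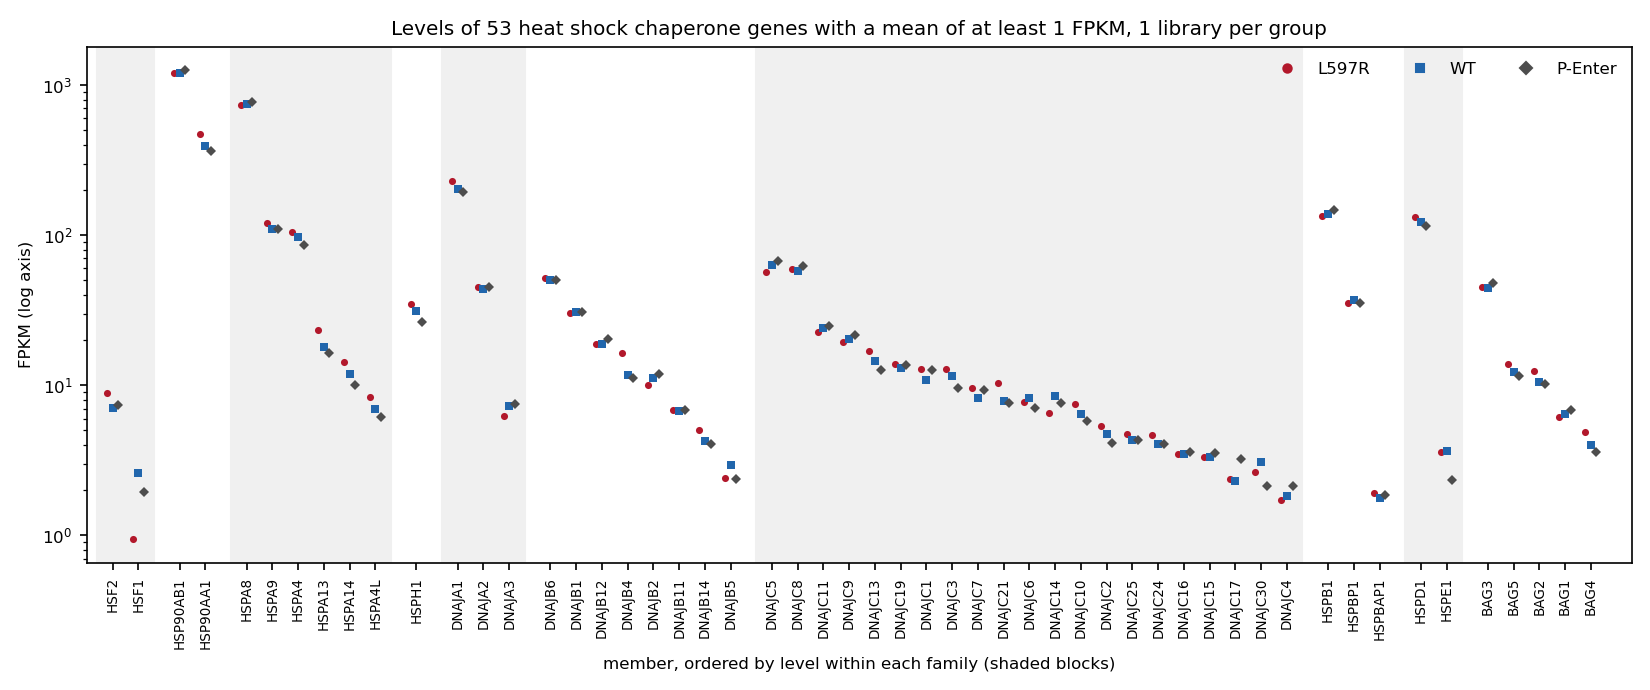
FPKM on a log axis of the 53 members with a mean of at least 1 FPKM, grouped by family, with 1 point for each library (L597R, WT, P-Enter). The 3 points of a gene lie close together along the whole range, from HSP90AB1 at about 1202 FPKM in L597R down to HSF1, whose L597R point at 0.942 FPKM stands below the other two.

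In L597R against P-Enter, 9 of the 53 members were higher and 1 was lower, against 7.15% and 1.82% of protein-coding genes. The higher members were DNAJB4, HSPA13, HSPA14, HSPE1, HSPH1, DNAJC13, DNAJC3, HSPA4L and DNAJC21, and the lower one was HSF1. The 9 higher members were 17.0% of the 53, and the median difference of all 53 was 0.03 on the log2 scale, against -0.01 for protein-coding genes. In WT against P-Enter, only HSPE1 was higher and no member was lower, against 0.534% and 0.951% of protein-coding genes, and the median was 0.00. In L597R against WT, DNAJB4 was higher and HSF1 was lower, against 1.60% and 0.962% of protein-coding genes, and the median was 0.05, against 0.01 for protein-coding genes. The comparisons with P-Enter share that library, so their values are given side by side only. By place in the cell, 6 of 35 measured members of the cytosol, nucleus or other places, 2 of 10 of the endoplasmic reticulum and 1 of 8 of the mitochondria were higher in L597R than in P-Enter.

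Read by GC content, the higher members sat where most higher genes sat. The ranges used hold 3120, 3119 and 3119 protein-coding genes, from low to high GC content. Of the members with at most 43.2% GC, 8 of 24 (33.3%) were higher in L597R than in P-Enter, against 19.4% of protein-coding genes in the same range. Of the members between 43.2% and 52.7% GC, 1 of 15 was higher, against 1.47%, and above 52.7% GC 0 of 14 were, against 0.545%. In that last range 1 of 14 members, HSF1, was lower, against 3.98%. The medians of the members in the 3 ranges, 0.27, -0.03 and -0.11, stood beside 0.23, -0.03 and -0.13 for protein-coding genes. By the residuals, HSPE1 alone was 1.3-fold higher and HSF1 alone 1.3-fold lower in L597R against P-Enter, beside 1.24% and 1.34% of protein-coding genes. HSPE1 and DNAJC30 were higher and 0 members lower in WT against P-Enter, beside 0.566% and 0.748%, and in L597R against WT 0 members were higher and HSF1 was lower, beside 0.844% and 0.844%. The part of GC content in the differences of single members was not tested.

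**Figure D2:**
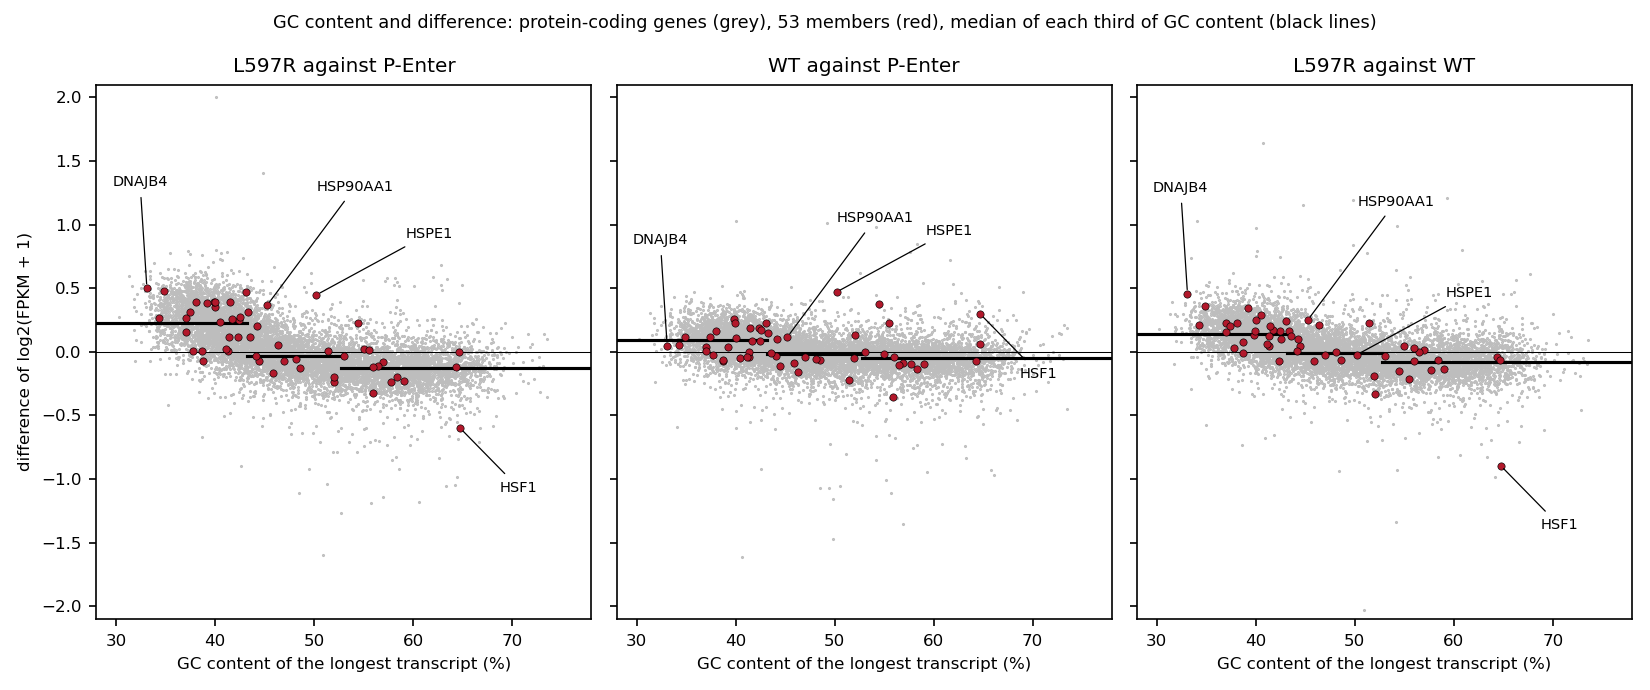
Difference of log2(FPKM + 1) against GC content for protein-coding genes (grey), the 53 members (red) and the median of protein-coding genes in each of 3 ranges of GC content (black lines), in L597R against P-Enter, WT against P-Enter and L597R against WT. Most members follow the slope of the grey cloud, and in L597R against P-Enter HSPE1 lies above it and HSF1 below it.

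The regulators came apart. HSF1 (ENSG00000185122, on chromosome 8) was at 0.942 FPKM in L597R, 2.61 FPKM in WT and 1.94 FPKM in P-Enter. These levels rest on 83 reads in L597R, 217 in WT and 137 in P-Enter. Per counted reads that is 4.999 CPM (exact 95% Poisson interval 3.98 to 6.20) in L597R, 13.9 CPM (12.1 to 15.8) in WT and 10.3 CPM (8.65 to 12.2) in P-Enter. The interval of L597R lies below both others, and those of WT and P-Enter overlap. L597R had 0.485 times the HSF1 reads of P-Enter (95% interval 0.365 to 0.642) and 0.361 times those of WT (0.277 to 0.467), while WT had 1.34 times those of P-Enter (1.08 to 1.68). After the regression the differences were -0.45, -0.81 and 0.36, and 0.0748% of protein-coding genes had a residual as low as that of HSF1 in L597R against WT. The genes beside it on chromosome 8, DGAT1, BOP1, MROH1 and ADCK5, differed by -0.05, -0.04, -0.06 and -0.08 in L597R against P-Enter and by 0.03, -0.08, 0.01 and -0.21 in L597R against WT. BOP1 and ADCK5 differed by 0.03 and 0.14 in WT against P-Enter, and their libraries stood in the same order as those of HSF1. The intervals of their read ratios held 1 in all 3 comparisons. HSF2 (ENSG00000025156, chromosome 6, 122399546 to 122433119, plus strand, GRCh38), a factor of the same family with roles in development, was at 8.84 FPKM in L597R, 7.08 FPKM in WT and 7.36 FPKM in P-Enter. L597R had 1.20 times its reads in P-Enter (1.03 to 1.41) and 1.25 times those in WT (1.07 to 1.46), with residuals of 0.05 and 0.15. The summed FPKM of HSF1 and HSF2 was 9.79 in L597R, 9.69 in WT and 9.31 in P-Enter.

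Known inducible targets of HSF1 outside the member rule had no common direction before the regression. Of 16 such genes 14 were measured at 1 FPKM or more. In L597R against P-Enter 2 were higher and 0 were lower, against 7.15% and 1.82% of protein-coding genes. The median was 0.00, with 7 differences above 0 and 7 below, while 10 residuals lay above 0 and 4 below. The higher genes were HMOX1, the haem-degrading enzyme, at 277 FPKM in L597R, 209 in WT and 193 in P-Enter, and RGS2, a regulator of G-protein signalling, at 5.08, 3.36 and 3.31 FPKM. In L597R against WT the same 2 genes were higher and 1 was lower, against 1.60% and 0.962% of protein-coding genes. The lower gene was CHORDC1, an HSP90-binding protein, at 2.64 FPKM in L597R, 4.43 FPKM in WT and 3.12 FPKM in P-Enter. Its read ratio in L597R against WT was 0.596. CHORDC1 was the 1 higher gene of this list in WT against P-Enter, against 0.534% of protein-coding genes. None of the 6 measured regulators of the heat shock factors, among them HSBP1, EP300 and SIRT1, was called in L597R against P-Enter, in WT against P-Enter or in L597R against WT. The shares of protein-coding genes higher and lower in WT against P-Enter were 0.534% and 0.951%, and those of the other comparisons are given above.

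Heat shock elements, the inverted GAA units that HSF1 binds, were looked for in the 250 bases before each start site in RefSeq promoters (GRCh38.p14), since they are the letters through which HSF1 is known to reach its genes. The letters searched were GAANNTTC and TTCNNGAA, each of which reads the same on both strands. Matches may overlap. Of the 62 members with a promoter in the table, 18 held such a pair (29.03%), against 14.0% of all genes of the table, and 6 (9.68%) held GAANNTTCNNGAA or TTCNNGAANNTTC, against 0.557%. Of the 48 members with a promoter and at least 1 FPKM, 12 held the pair (25.0%), against 11.6% of protein-coding genes at that level. A match describes letters and is not a measured site. The stretches below are written 5′ to 3′ on the strand of the gene, with the matched letters in capitals. Those of the HSP90 pair are given in full, and the other examples were chosen after the values were seen. They are the abundant HSPA8, DNAJA1 and HSPD1, the heat-inducible DNAJB1, and the members DNAJB4 and HSPA4L that were higher in L597R. HSPA1A and HSPA6, with few assigned reads, complete them.
HSP90AA1, chr14:102087045-102087294, minus strand: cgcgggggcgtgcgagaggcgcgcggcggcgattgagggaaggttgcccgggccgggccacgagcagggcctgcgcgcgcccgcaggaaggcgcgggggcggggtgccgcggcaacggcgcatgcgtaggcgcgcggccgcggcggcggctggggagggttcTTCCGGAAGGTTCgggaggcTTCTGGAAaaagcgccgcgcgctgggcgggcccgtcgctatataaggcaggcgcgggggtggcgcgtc
HSP90AB1, chr6:44247693-44247942, plus strand: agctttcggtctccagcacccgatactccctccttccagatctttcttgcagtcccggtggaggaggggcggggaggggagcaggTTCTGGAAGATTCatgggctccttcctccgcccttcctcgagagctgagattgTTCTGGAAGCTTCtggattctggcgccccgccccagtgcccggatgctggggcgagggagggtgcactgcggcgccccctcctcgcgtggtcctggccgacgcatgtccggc
HSPA8, chr11:123062164-123062206, minus strand: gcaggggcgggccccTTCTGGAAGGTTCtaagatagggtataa
DNAJA1, chr9:33025060-33025097, plus strand: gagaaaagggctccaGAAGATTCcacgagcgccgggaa
DNAJB1, chr19:14518422-14518489, minus strand: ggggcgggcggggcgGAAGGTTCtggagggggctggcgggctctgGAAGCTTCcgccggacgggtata
HSPD1, chr2:197500053-197500090, minus strand: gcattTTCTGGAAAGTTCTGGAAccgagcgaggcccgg
DNAJB4, chr1:78004826-78004863, plus strand: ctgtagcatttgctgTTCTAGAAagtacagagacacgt
HSPA4L, chr4:127782137-127782174, plus strand: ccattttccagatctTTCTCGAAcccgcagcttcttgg
HSPA1A, chr6:31815422-31815459, plus strand: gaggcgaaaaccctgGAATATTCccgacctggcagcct
HSPA6, chr1:161524451-161524493, plus strand: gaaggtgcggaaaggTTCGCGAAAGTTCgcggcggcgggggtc

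Runs of 3 units stood before HSP90AB1, HSPA8, HSP90AA1 and HSPD1, each with a mean of at least 100 FPKM, and before DNAJB6 and HSPA6. DNAJB6 had a mean of 50.7 FPKM. HSPA6 was near 0 in assigned reads, with the limit from shared copies given above. Of these 48 members, 2 of the 12 with a pair and 6 of the 36 without one were higher in L597R than in P-Enter, the same share of each, against 7.15% of protein-coding genes. The 2 higher genes with a pair were DNAJB4 and HSPA4L.

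The HSP90 pair moved apart. HSP90AA1 (ENSG00000080824, chromosome 14, 102080738 to 102139699, minus strand), the inducible cytosolic HSP90, was at 469 FPKM in L597R, 394 FPKM in WT and 364 FPKM in P-Enter. HSP90AB1 (ENSG00000096384, chromosome 6, 44246166 to 44253888, plus strand), the constitutive form, was at 1202 FPKM in L597R, 1201 FPKM in WT and 1252 FPKM in P-Enter. HSP90AA1 was highest in L597R and HSP90AB1 highest in P-Enter. The read ratio of HSP90AA1 was 1.29 (1.27 to 1.31) in L597R against P-Enter, 1.08 (1.07 to 1.10) in WT against P-Enter and 1.19 (1.17 to 1.21) in L597R against WT, and those of HSP90AB1 were 0.960 (0.949 to 0.972), 0.959 (0.948 to 0.971) and 1.001 (0.989 to 1.013). HSP90AA1 fell just short of the size rule in L597R against P-Enter at 0.37, and its residual was nearly as large at 0.36, a value that 1.54% of protein-coding genes reached. It thus made up 28.1% of the pair's FPKM in L597R, 24.7% in WT and 22.5% in P-Enter. Both genes share part of their sequence with pseudogenes: 17.5% of the 50-base stretches of HSP90AA1 and 18.8% of those of HSP90AB1 occur in another gene. The pseudogene HSP90AA2P was at 7.76, 6.31 and 5.86 FPKM in L597R, WT and P-Enter and HSP90AB3P at 4.21, 5.11 and 5.43 FPKM.

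No HSP90 partner passed the size rule in L597R against P-Enter, where 7.15% of protein-coding genes were higher and 1.82% lower. Of 14 co-chaperones, TRAP1 included, 12 were measured at 1 FPKM or more, and their median was -0.11 in L597R against P-Enter, with 6 residuals above 0 and 6 below. CHORDC1, given above, passed the rule in the other comparisons, and its residual of -0.53 in L597R against P-Enter was past 1.3-fold. STIP1, which hands clients from HSP70 to HSP90, was at 115 FPKM in L597R, 120 FPKM in WT and 128 FPKM in P-Enter. CDC37, the adaptor for kinase clients, was at 87.4, 82.0 and 90.9 FPKM, and PTGES3, the late co-chaperone p23, at 138, 126 and 124 FPKM. TRAP1, the mitochondrial HSP90, was at 24.4 FPKM in L597R, 27.9 FPKM in WT and 30.1 FPKM in P-Enter, a read ratio of 0.810 (0.762 to 0.861) in L597R against P-Enter.

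**Figure D3:**
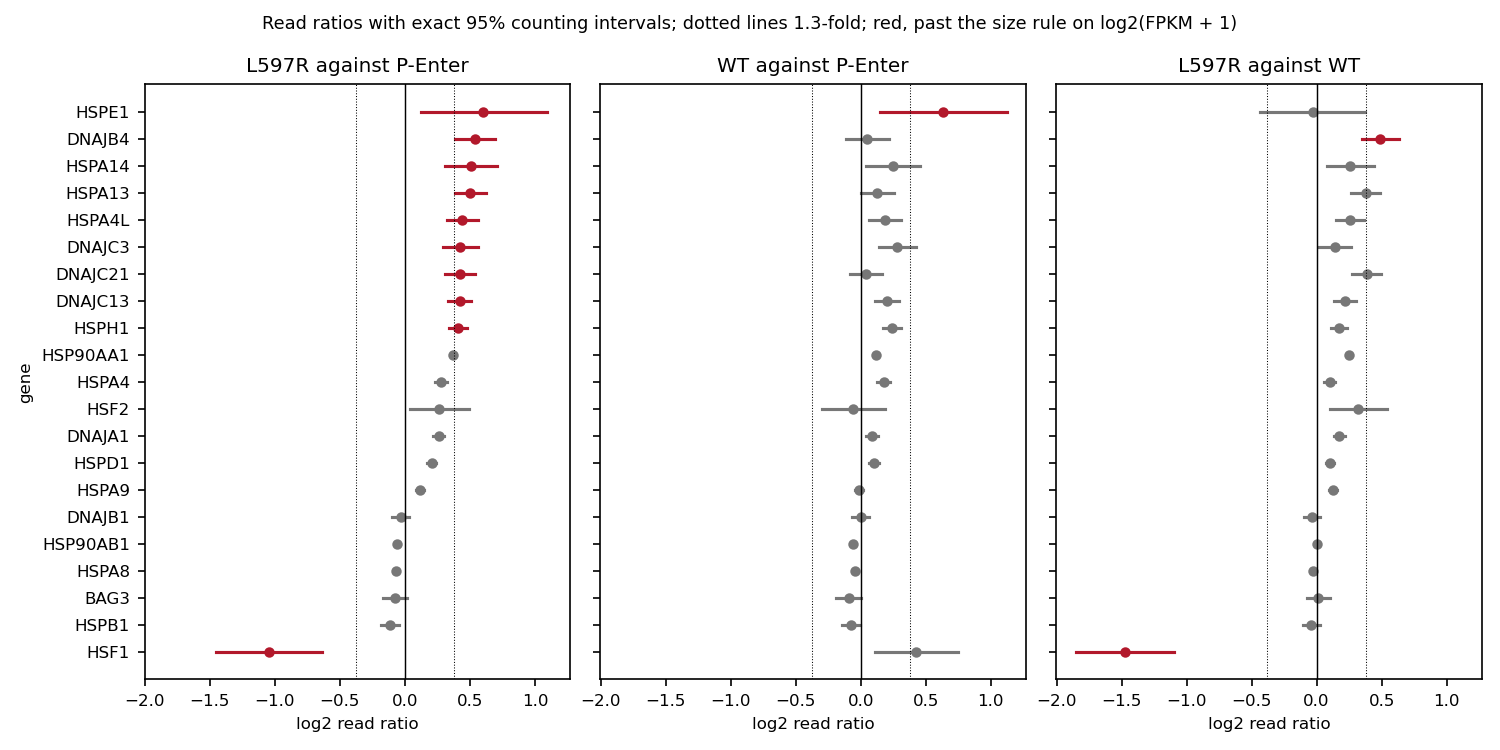
Log2 read ratio with its exact 95% counting interval for members called in any comparison and for abundant members and regulators, in L597R against P-Enter, WT against P-Enter and L597R against WT. Red marks the members past the size rule, and dotted lines mark 1.3-fold. Intervals of abundant genes such as HSP90AA1 are narrower than their points, and that of HSPE1 is the widest among the higher members.

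Among the HSP70 genes, the constitutive form was nearly level, and HSPA13, HSPA14 and HSPA4L, all less abundant, were higher in L597R than in P-Enter. HSPA8, the main HSP70 of unstressed cells, was at 734 FPKM in L597R, 748 FPKM in WT and 771 FPKM in P-Enter, a ratio of 0.953 (0.941 to 0.964) in L597R against P-Enter. HSPA9, the mitochondrial HSP70, was at 120, 110 and 111 FPKM, with a ratio of 1.08 (1.06 to 1.11). HSPA13, a microsomal HSP70 (chromosome 21, 14371115 to 14383484, minus strand), was at 23.3 FPKM in L597R, 18.0 FPKM in WT and 16.5 FPKM in P-Enter, a ratio of 1.42 (1.31 to 1.54) in L597R against P-Enter. HSPA14, which sits on ribosomes with DNAJC2 (chromosome 10, 14838164 to 14871741, plus strand), was at 14.2, 11.8 and 9.98 FPKM, a ratio of 1.42 (1.24 to 1.63). In both genes L597R was highest, WT intermediate and P-Enter lowest. The residuals were 0.12 for HSPA13, with 34.9% GC, and 0.36 for HSPA14, with 43.1% GC. HSPA14 shares 17.4% of its exon bases with another gene on the same strand.

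HSP110 proteins recharge HSP70 with ATP and help to take aggregates apart. The RNA of their 3 genes was highest in L597R, and 2 of the 3 genes passed the size rule against P-Enter. All 3 lie in the range of at most 43.2% GC, where 19.4% of protein-coding genes were higher. HSPH1 (chromosome 13, 31134974 to 31162388, minus strand) was at 34.9 FPKM in L597R, 31.0 FPKM in WT and 26.3 FPKM in P-Enter. HSPA4 was at 105, 97.5 and 86.3 FPKM and HSPA4L (chromosome 4, 127781821 to 127840733, plus strand) at 8.33, 6.99 and 6.14 FPKM. For each gene L597R was highest and P-Enter lowest. The ratios in L597R against P-Enter were 1.33 (1.27 to 1.39) for HSPH1, 1.21 (1.17 to 1.25) for HSPA4 and 1.36 (1.25 to 1.48) for HSPA4L. HSPH1 and HSPA4L passed the size rule and HSPA4 did not, and the residuals were 0.20, 0.17 and 0.12. In WT against P-Enter the ratios were 1.18 (1.12 to 1.24), 1.13 (1.09 to 1.17) and 1.14 (1.04 to 1.24), none past the rule. Their summed FPKM was 20.1% of that of HSPA8 in L597R, 18.1% in WT and 15.4% in P-Enter.

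The J-domain genes had no common direction. DNAJA1, the main cytosolic partner of HSPA8, was at 230 FPKM in L597R, 204 FPKM in WT and 193 FPKM in P-Enter, a ratio of 1.20 (1.16 to 1.23) in L597R against P-Enter that did not pass the size rule. DNAJA2, another cytosolic partner, was at 45.0, 43.7 and 44.9 FPKM. DNAJA3, the mitochondrial form, was at 6.23 FPKM in L597R, 7.26 FPKM in WT and 7.54 FPKM in P-Enter, with a ratio of 0.827 (0.745 to 0.918) in L597R against P-Enter. Thus, before the regression, 1 of these genes was highest in L597R, 1 was level and 1 was lowest there. The residuals of DNAJA1, DNAJA2 and DNAJA3 in L597R against P-Enter were 0.14, -0.14 and -0.16.

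Of 8 measured DNAJB genes, 1 was called, higher in L597R than in P-Enter and than in WT, against 7.15% and 1.60% of protein-coding genes. DNAJB4 (chromosome 1, 77979175 to 78017964, plus strand), a cytosolic J-protein related to DNAJB1, was at 16.3 FPKM in L597R, 11.6 FPKM in WT and 11.2 FPKM in P-Enter. L597R stood apart and WT lay near P-Enter: the ratio was 1.45 (1.31 to 1.61) in L597R against P-Enter, 1.404 (1.27 to 1.55) in L597R against WT and 1.03 (0.923 to 1.16) in WT against P-Enter. DNAJB4 had the lowest GC content of the members named here, 33.1%, and residuals of 0.09 and 0.19 in the comparisons of L597R with P-Enter and with WT. DNAJB1, the heat-inducible J-protein, was at 30.2 FPKM in L597R, 31.0 FPKM in WT and 31.0 FPKM in P-Enter, with a ratio of 0.977 (0.933 to 1.02) in L597R against P-Enter. DNAJB6, which suppresses aggregation, was at 51.5, 50.1 and 50.6 FPKM, and the pseudogene DNAJB6P1, 99.2% identical to it, was at 98.4, 93.2 and 96.6 FPKM. The pseudogene held fewer reads, 1212, 1083 and 953 over 742 bases, against 12821, 11746 and 10082 over 14981 bases for DNAJB6. Reads of the pair may be shared out between them. DNAJB12, an anchor of HSP70 at the endoplasmic reticulum, was at 18.8, 18.9 and 20.4 FPKM.

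Of 21 measured DNAJC genes, 3 were higher in L597R than in P-Enter, against 7.15% of protein-coding genes and 19.4% of those with at most 43.2% GC, the range that holds all 3. DNAJC13, which works in endosome sorting (chromosome 3, 132417526 to 132539032, plus strand), was at 16.8 FPKM in L597R, 14.5 FPKM in WT and 12.6 FPKM in P-Enter. DNAJC3, an inhibitor of the eIF2α kinases also found in the endoplasmic reticulum (chromosome 13, 95677139 to 95794989, plus strand), was at 12.8, 11.6 and 9.53 FPKM. DNAJC21, a ribosome biogenesis factor (chromosome 5, 34929559 to 34958964, plus strand), was at 10.3, 7.88 and 7.66 FPKM. In the first pair WT lay between the other libraries, and for DNAJC21 it lay near P-Enter. Their ratios in L597R against P-Enter were 1.34 (1.26 to 1.43), 1.34 (1.22 to 1.48) and 1.34 (1.24 to 1.46), and their residuals 0.23, 0.19 and 0.15. The most abundant DNAJC genes were not among them. DNAJC5, the cysteine string protein of secretory vesicles, was at 57.2 FPKM in L597R, 63.2 FPKM in WT and 67.5 FPKM in P-Enter. DNAJC8, a splicing-associated protein, was at 59.3, 57.4 and 62.2 FPKM, and DNAJC11, a mitochondrial member, at 22.8, 24.0 and 24.7 FPKM. The ratio of DNAJC5 was 0.848 (0.815 to 0.882) in L597R against P-Enter with a residual of -0.08. At the other end of the family, DNAJC17 was at 2.37 FPKM in L597R, 2.29 FPKM in WT and 3.22 FPKM in P-Enter, just short of the size rule at -0.33 in L597R against P-Enter and -0.36 in WT against P-Enter. Of its exon bases 26.1% overlap other genes on either strand. DNAJC30, a mitochondrial J-protein, was at 2.66, 3.07 and 2.14 FPKM, just short of the rule at 0.377 in WT against P-Enter and past it after the regression at 0.45.

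The mitochondrial chaperonin genes differed in level far more than in direction. HSPD1 (chromosome 2, 197486581 to 197516737, minus strand) was at 132 FPKM in L597R, 123 FPKM in WT and 115 FPKM in P-Enter, ratios of 1.15 (1.13 to 1.18) in L597R against P-Enter and 1.07 (1.05 to 1.10) in WT against P-Enter. Its lid HSPE1, the neighbour on the other strand (197499994 to 197503457), was at 3.57 FPKM in L597R, 3.64 FPKM in WT and 2.35 FPKM in P-Enter. L597R and WT lay together and P-Enter lay below. The ratios were 1.52 (1.09 to 2.13) in L597R against P-Enter, 1.55 (1.11 to 2.18) in WT against P-Enter and 0.980 (0.741 to 1.295) in L597R against WT, and the residuals 0.51, 0.52 and -0.01. These rest on 108 reads in L597R, 104 in WT and 57 in P-Enter, the fewest reads of any measured member in P-Enter. Per length, HSPD1 was thus 37.1 times HSPE1 in L597R, 33.8 times in WT and 48.7 times in P-Enter. Of the 50-base stretches of HSPD1 24.8% occur in another gene, most often HSPD1P1. Of those of HSPE1 27.2% do, most often in the readthrough HSPE1-MOB4. Of the exon bases of HSPE1 23.9% overlap other genes on either strand, HSPD1 among them. The annotation lists 26 HSPE1 pseudogenes, of which 5 were among the genes analysed. The highest value among these was 6.05 FPKM, above HSPE1 itself. The part of shared reads in the low level of HSPE1 and in its differences was not tested. Of the other mitochondrial members, DNAJC15 and DNAJC19, subunits of or partners to the import motor, differed by -0.08 and 0.01 in L597R against P-Enter. DNAJA3 differed by -0.24 and DNAJC11 by -0.12, with the intervals of both read ratios below 1, and DNAJC30 by 0.22. No gene of 7 mitochondrial proteases and disaggregases, LONP1 and CLPP among them, was called in any of the 3 comparisons. Of protein-coding genes 7.15% were higher and 1.82% lower in L597R against P-Enter. In WT against P-Enter the shares were 0.534% and 0.951%, and in L597R against WT 1.60% and 0.962%.

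None of the 3 measured HSPB genes and none of the 5 BAG genes was called in any of the 3 comparisons. Among protein-coding genes 7.15% were higher and 1.82% lower in L597R against P-Enter. The shares were 0.534% and 0.951% in WT against P-Enter and 1.60% and 0.962% in L597R against WT. At these shares, 0 called among so few genes does not set the families apart. HSPB1, the main small heat shock protein here, was at 135 FPKM in L597R, 139 FPKM in WT and 146 FPKM in P-Enter, with a ratio of 0.922 (0.879 to 0.967) in L597R against P-Enter and a residual of 0.03. HSPBP1 and HSPBAP1, which carry the prefix but are binding partners of HSP70 and HSPB1, were at 35.3, 36.9 and 35.3 FPKM and at 1.90, 1.78 and 1.87 FPKM. BAG3, the stress-inducible partner of HSP70 in selective autophagy, was at 45.2 FPKM in L597R, 44.8 FPKM in WT and 47.8 FPKM in P-Enter. BAG5 was at 13.9, 12.3 and 11.5 FPKM and BAG2, an inhibitor of the HSP70-bound ubiquitin ligase STUB1, at 12.4, 10.5 and 10.1 FPKM. Of the exon bases of BAG2 44.2% overlap genes on the other strand. Their ratios in L597R against P-Enter were 0.947 (0.888 to 1.01), 1.21 (1.10 to 1.32) and 1.22 (1.12 to 1.33), none past the size rule. BAG4, which silences death receptors, was at 4.90 FPKM in L597R, 3.97 FPKM in WT and 3.61 FPKM in P-Enter, and its read ratio of 1.36 (1.15 to 1.60) came to 0.35 on the log2(FPKM + 1) scale, below the rule.

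**Figure D4:**
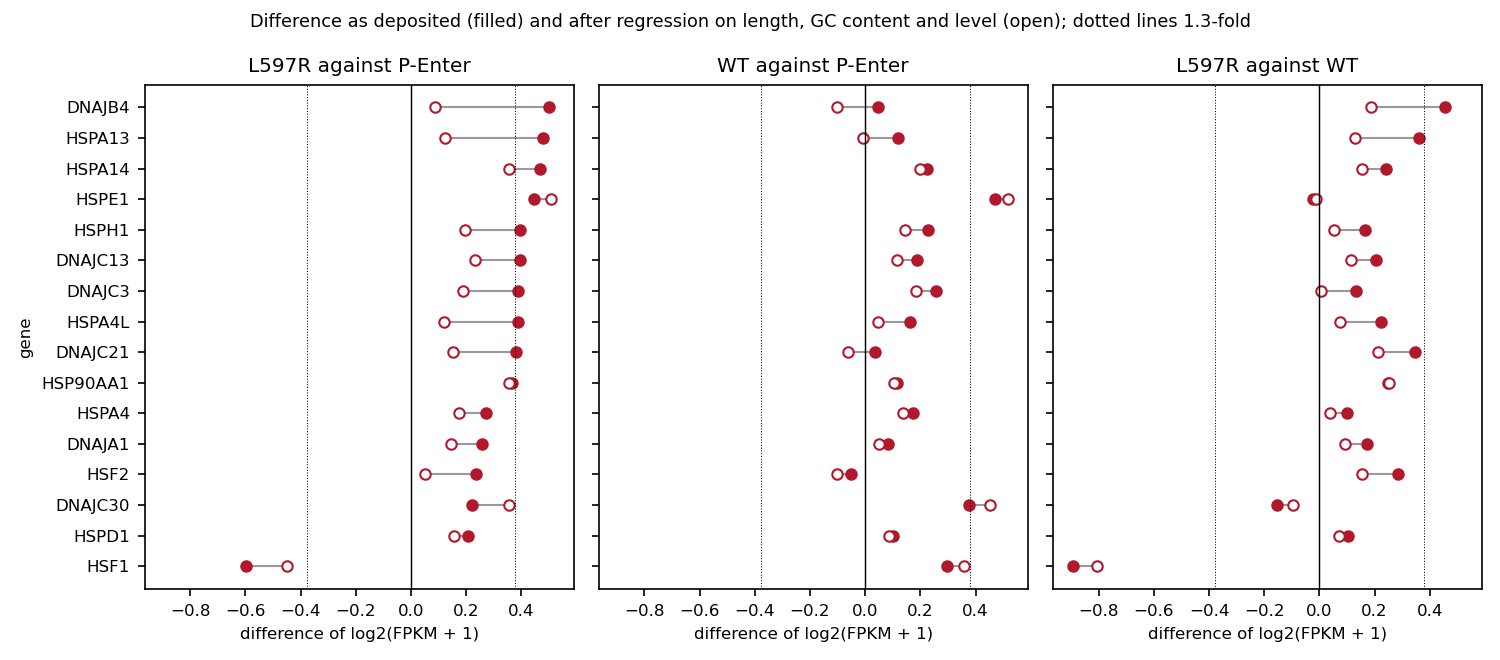
Difference of log2(FPKM + 1) as deposited (filled) and after the regression on length, GC content and level (open) for called members and selected others, in L597R against P-Enter, WT against P-Enter and L597R against WT. In L597R against P-Enter the open points of DNAJB4 and HSPA13 lie at 0.09 and 0.12, while those of HSPE1, HSP90AA1 and HSPA14 lie at 0.51, 0.36 and 0.36 and that of HSF1 at -0.45.

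The other 21 measured members ranged from 1.72 to 21.7 FPKM over the libraries. None was called, because members past the size rule in any comparison had been left out of this set. Their differences lay between -0.33 (DNAJC17) and 0.35 (BAG4) in L597R against P-Enter, with 13 above 0, between -0.36 (DNAJC17) and 0.377 (DNAJC30) in WT against P-Enter, with 9 above 0, and between -0.33 (DNAJC14) and 0.25 (BAG4) in L597R against WT, with 12 above 0. Among them, DNAJC14, which guides receptors out of the endoplasmic reticulum, was at 6.56 FPKM in L597R, 8.501 FPKM in WT and 7.65 FPKM in P-Enter, and shares 23.2% of its exon bases with another gene on the same strand. DNAJC1, a J-protein of the endoplasmic reticulum, was at 12.8, 10.8 and 12.7 FPKM, lowest in WT. DNAJC2, the ribosome-bound partner of HSPA14, was at 5.39, 4.70 and 4.15 FPKM, and DNAJC10, a disulphide reductase of the endoplasmic reticulum, at 7.48, 6.39 and 5.82 FPKM, both highest in L597R and lowest in P-Enter. Of the 16 members below 1 FPKM, 13 had at most 20 reads in every library, and the highest value among the 16 was 0.965 FPKM.

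The folding machines next to the heat shock system showed no common direction. The 8 subunits of the cytosolic chaperonin CCT, which folds actin and tubulin, had a median of 0.02 in L597R against P-Enter and 0 were called in any of the 3 comparisons. Subunit CCT3 was at 198 FPKM in L597R, 219 FPKM in WT and 227 FPKM in P-Enter, and CCT8 at 129, 119 and 107 FPKM, in opposite order. Of 6 prefoldin subunits, which hand actin and tubulin to CCT, 5 were measured. VBP1 was higher in L597R against P-Enter, at 63.6, 52.1 and 48.1 FPKM in L597R, WT and P-Enter. PFDN6 was lower in both comparisons with P-Enter, at 0.999, 0.735 and 1.89 FPKM. In L597R against P-Enter 7.15% of protein-coding genes were higher and 1.82% lower. In WT against P-Enter 0.534% were higher and 0.951% lower, and in L597R against WT 1.60% and 0.962%. Of 9 further HSP70 co-chaperones, among them ST13 and STUB1, 0 were called in any of the 3 comparisons, and the median was -0.05 in L597R against P-Enter.

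By the counting intervals alone, more members stood apart. Such intervals narrow as reads rise, so these counts depend on depth as well as on the size of a difference. The 53 members had a median of 1173 reads in L597R, 1019 in WT and 897 in P-Enter. Depth was not matched between them and the protein-coding genes. In L597R against P-Enter the interval of the read ratio lay above 1 for 22 members and below 1 for 12, beside 27.9% and 25.7% of protein-coding genes. In WT against P-Enter it lay above 1 for 15 and below 1 for 9, beside 15.3% and 12.6%, and in L597R against WT above 1 for 24 and below 1 for 7, beside 24.0% and 17.5%. As shares of the 53 members, 41.5%, 28.3% and 45.3% thus lay above 1 and 22.6%, 17.0% and 13.2% below 1 in the same order of comparisons. Of the 53 members 24 had at most 43.2% GC, the range of 3120 of the 9358 protein-coding genes. In the same order of comparisons, 29, 21 and 33 of the 53 members had a residual above 0. Beside them stood 4643, 4754 and 4702 of the 9358 protein-coding genes.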

How the data were processed

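The data are RNA sequencing of 3 DU145 libraries, 1 for each group. Per the labels' protocols, RNA was extracted with Trizol and made into stranded mRNA libraries. Trimmomatic, HISAT2, HTSeq and Cufflinks were used with hg38/GRCh38, per the submitters' processing notes. Their versions, the strand setting and the annotation are not given in the sources used here. Reads of genes that overlap on opposite strands cannot be assigned with certainty unless that setting is known. How reads that map to several places were treated is not given in the sources used here, so near-identical copies cannot be told apart with certainty.

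The deposited values are FPKM of Ensembl genes, made by the authors. Differences are of log2(FPKM + 1), and the size rule, 1.3-fold at a mean of at least 1 FPKM, was applied to 10639 genes. FPKM from whole reads is a multiple of what 1 read is worth, which gave the library totals and the reads of 22775 genes (97.4%), all 69 members included, within a tolerance of 1e-05. Recovered reads summed to 99.9% to 100.0% of each total. They are not independent molecules where copied by PCR. Positions, types, lengths and GC content came from GENCODE 29, promoters from RefSeq (GRCh38.p14). The length behind the FPKM, found with the whole reads, was the exon length of GENCODE 29 for 15 of the 69 members. It lay within 10% of that length for 58. Levels of different genes set side by side depend on the lengths behind them. The regression was fitted to 9358 protein-coding genes, with cubic terms in GC content, in log mean FPKM and in log length.

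The members and lists were chosen with earlier results of these data known. Members named with all values are those past the rule in any comparison, the 3 highest of each family, HSF1, HSF2 and HSPA1A; other genes were named after their values were seen. HSPA1B and 9 other genes whose names meet the rule were not analysed here. On simulated data for L597R against P-Enter with counting error only, 90.9% of 99 genes changed 1.5-fold were called, and 2.45% of 2614 unchanged genes. Alternatives were pseudocounts of 0.1 and 5, other filters and thresholds, rescaling by the median ratio, read intervals and the regression. Software was Python 3.11.15, pandas 2.3.3, numpy 2.4.6, scipy 1.17.1 and, for plots, matplotlib 3.10.9.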

Additional observations from a re-analysis of the deposited data

How the results depend on the processing

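The counts of called members depend on the threshold. For L597R against P-Enter (10 members called), WT against P-Enter (1) and L597R against WT (2), the counts were 2, 0 and 0 with a pseudocount of 5, 1, 0 and 1 at 1.5-fold, 0, 0 and 0 at 2-fold, 3, 0 and 1 where the read interval had to lie beyond 1.3-fold, 34, 24 and 31 where it had only to leave out 1, and 2, 2 and 1 after the regression on length, GC content and level. Some settings moved the count by over 1.5 times in WT against P-Enter only: 4 with a pseudocount of 0.1, 2 without a filter, 2 after rescaling by the median ratio (factors 0.998, 0.998 and 1.01) and 3 with genes of every type counted. With a mean of at least 5 FPKM the count was 0 in WT against P-Enter and 1 in L597R against WT. Over the alternatives run, the median difference of the members stayed between 0.02 and 0.04 in L597R against P-Enter, between -0.04 and 0.02 in WT against P-Enter and between 0.02 and 0.08 in L597R against WT, and no called value changed sign. Rescaling also took HSP90AA1 past the rule in L597R against P-Enter, at 0.383, against a rule of 0.379. The cause was not tested. The median half-width of a member's interval in L597R against P-Enter was 0.13 on the log2 scale, and the ratio of HSPE1, on 108 reads in L597R and 57 in P-Enter, had an interval of 1.09 to 2.13. No paired analysis was possible because each group had 1 library. The alternative that summed HSPA1A with HSPA1B was not run, since HSPA1B was not analysed here.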
